A study of Caenorhabditis elegans with 24 samples.

Results

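Untreated animals of an xpa-1 deletion mutant of the nematode Caenorhabditis elegans were compared with untreated wild-type animals across all measured genes. The members were chosen by label, as the arrays of unirradiated xpa-1 and unirradiated N2 animals, and they number 8 of the 24 arrays in the series, 4 for each strain. N2 is the ancestral wild-type strain, and the mutant strain was RB864, outcrossed 3 times, so that differences elsewhere in its genome may remain. Both groups were young adults grown at 25 °C and collected 24 h after the vulval crescent could be seen in the last larval stage, and each sample was a pellet of many whole worms. The controls passed through every handling step of irradiated animals except the dose, including a period on K-agar without food and a recovery on plates with OP50 bacteria. The other arrays held glp-1 controls (strain JK1107) and UV-treated animals of all 3 strains, frozen 3 h after 50 J/m2. Each group had 2 arrays from 2007 and 2 from 2008, and the labels do not say whether these were separate cultures, so p-values measure the spread between these samples, which may be technical.

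The protein XPA-1 is the nematode counterpart of human XPA. In nucleotide excision repair, a lesion that distorts the helix is first found by XPC or by a stalled RNA polymerase, TFIIH opens the strand, and XPA with replication protein A checks the damage and positions the nucleases XPF-ERCC1 and XPG, after which the gap is filled and sealed. The pathway removes UV photoproducts and other bulky adducts, and worms without xpa-1 are sensitive to UV. Comparing unirradiated animals of both strains asks which transcripts differ when no UV damage was added.

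Amplification differed between years, from 500 pg of total RNA in 2007 and from 100 ng in 2008, and the arrays differed with it. The median deposited intensity of the control arrays was 5.45 to 7.76 in 2007, while in 2008 it was 132.2 and 160.7 in N2 and 180.1 and 87 in the mutant. Replicate arrays of 1 strain correlated at a Spearman coefficient across probe sets of 0.81 to 0.85 in 2007 and 0.96 to 0.97 in 2008. Levels below are on the scale log2(value + 32) after quantile normalization, with a lowest possible level of 5.00, and differences are mutant minus N2 with year held as a block, in limma with Benjamini-Hochberg adjustment over 22548 probe sets and a limit of 0.05. On this scale the change of a dim transcript is understated.

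The xpa-1 transcript was high in N2 and near the lowest possible level in the mutant. The N2 control arrays of 2007 stood at 9.08 and 9.33 and those of 2008 at 9.87 and 9.92. The mutant control arrays stood at 6.59 and 5.38 in 2007 and at 5.37 and 5.51 in 2008. The strains did not overlap in either year, and the difference was -3.84 (SE 0.40, 95% interval -4.67 to -3.01, limma adjusted p = 1.93e-04). The deposited intensities of 2007, which are small, showed the same order, with 38.8 and 90.7 in N2 against 5.47 and 1.14 in the mutant. The sources used here do not give whether the probes lie inside the deleted segment. In untreated glp-1 animals, which lack most of their germ line at 25 °C, xpa-1 stood at 6.65, 6.51, 7.29 and 6.90, below every N2 control array.

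The other call was mks-6, the gene next to xpa-1 in the order of the annotation, and it was higher in the mutant. The protein MKS-6 belongs to the transition zone, the gate at the base of sensory cilia, which in C. elegans are found on sensory neurons. Its level was 6.25 and 5.97 (2007) and 6.22 and 6.47 (2008) in N2 and 9.63 and 9.38 (2007) and 9.31 and 9.09 (2008) in the mutant. All mutant arrays were above all N2 arrays, and the difference was 3.13 (SE 0.34, 95% interval 2.41 to 3.85, limma adjusted p = 2.38e-04). In the 2007 deposited intensities mks-6 was at 5.51 and 4.78 in N2 and at 50.1 and 48.4 in the mutant. In untreated glp-1 animals it was at 5.88, 6.78, 6.11 and 6.41, below every mutant array. These 2 calls were 0.00887% of the probe sets tested.

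**Figure D1:**
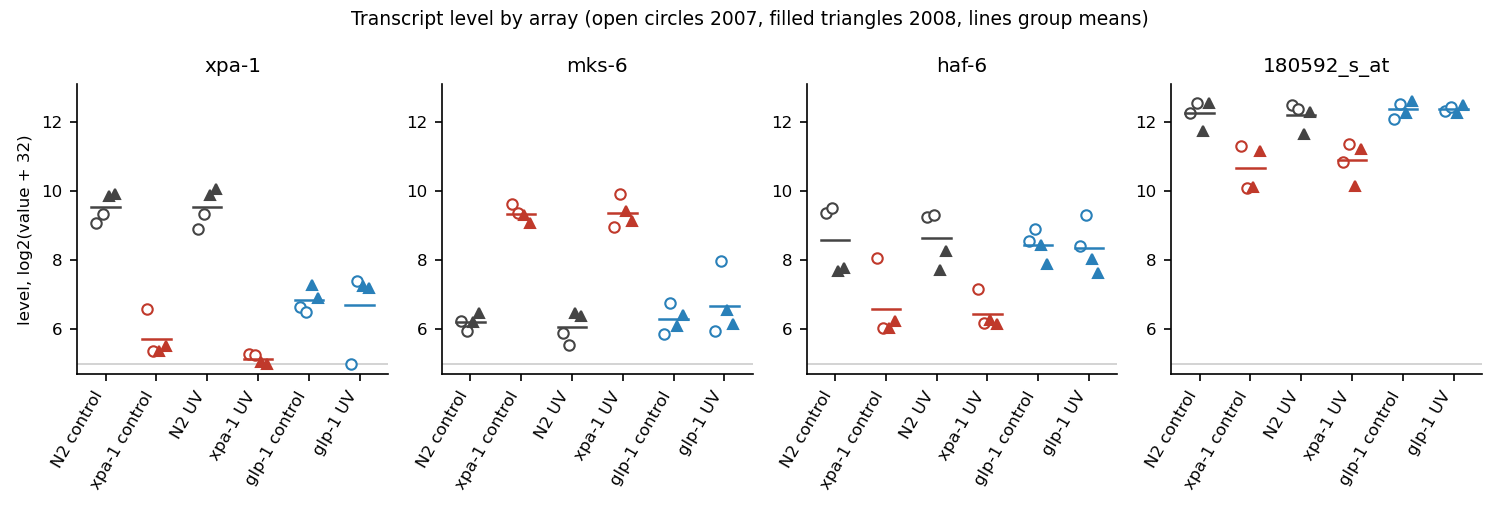
Level of xpa-1, mks-6, haf-6 and probe set 180592_s_at on every array of the 6 groups, on the scale log2(value + 32), with open circles for 2007, filled triangles for 2008 and a line at each group mean. Within each year the mutant arrays stand apart from N2 in both control and UV groups, downward for xpa-1, haf-6 and 180592_s_at and upward for mks-6. The grey line marks the lowest possible level of 5.00.

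Both calls depend on the scale. On deposited values, with median centring and with quantile normalization within each year neither passed, and xpa-1 alone was also lost with the 8 control arrays fitted on their own and on log2(value + 1); over these and the other alternatives xpa-1 lay between -5.32 and -2.75 and mks-6 between 2.01 and 3.84. A fit with a year term for each group called 21 probe sets (0.0931%) and one with array weights 51. Many of the 21 were far from 0 in 2007 only, such as F33E11.2 (-2.94 in 2007, 0.12 in 2008) and ceh-49 (2.06 and -0.22). Also among the 21 were 176845_s_at, 180813_s_at and 181239_s_at of a repeated gene run described below (limma adjusted p = 0.0434, 0.0168 and 0.0479).

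The animals frozen after UV gave the same strain difference in separate samples. There xpa-1 was at 8.92, 9.34, 9.90 and 10.07 in N2 and at 5.28, 5.25, 5.07 and 5.00 in the mutant, a difference of -4.41 (SE 0.40). For mks-6 the UV arrays of N2 stood at 5.89, 5.55, 6.49 and 6.39 and those of the mutant at 8.96, 9.93, 9.43 and 9.16, a difference of 3.29 (SE 0.34). The strain difference after UV minus that in controls was -0.57 for xpa-1 (unadjusted p = 0.326) and 0.16 for mks-6 (unadjusted p = 0.740). Across all probe sets this difference of differences gave 0 calls (0%) in limma and 450 probe sets at an unadjusted p under 0.05 (2%).

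Of the 10 measured genes on either side of xpa-1 in annotation order, mks-6 alone passed the limit. With mks-6, 3 of the 20 had an unadjusted p under 0.05, where 3.71% of all genes did. Besides mks-6 these were gly-19, named as a glycosyltransferase gene, at -0.85, and crml-1, the worm CARMIL, a regulator of actin capping, at -0.37, the gene on the other side of xpa-1. On UV arrays gly-19 stood at -0.47 and crml-1 at 0.20, which is the opposite direction. The E protein gene hlh-2, a partner of many basic helix-loop-helix factors, was at 0.61, and unc-14, needed for axon growth, at -0.32. The genes following mks-6, K07G5.4 and K07G5.5, were at -0.088 and 0.0070.

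**Figure D2:**
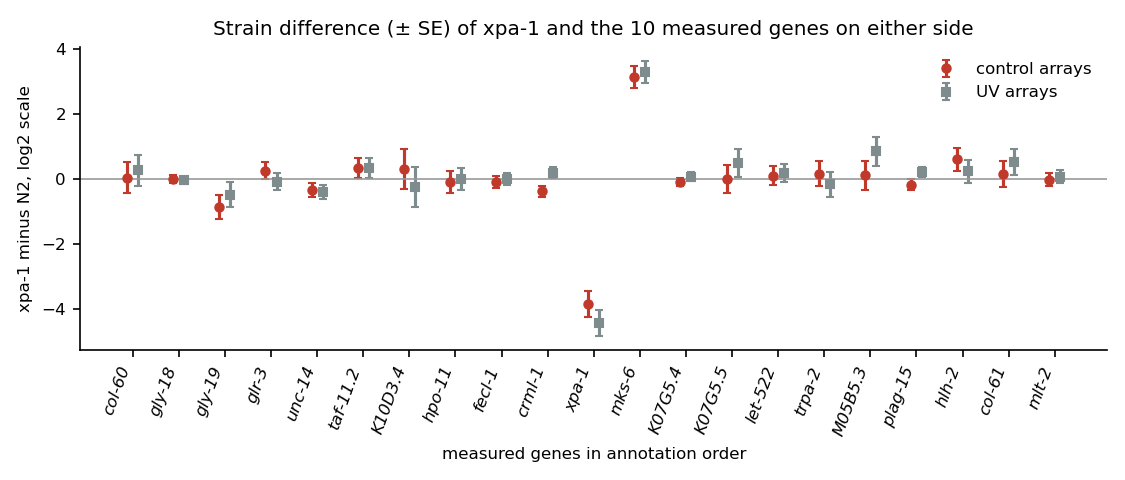
Strain difference, mutant minus N2 with its SE on the log2 scale, of xpa-1 and the 10 measured genes on either side in annotation order, for control arrays (circles) and UV arrays (squares). On both sets of arrays xpa-1 lies below -3.5 and mks-6 above 3, while the other genes lie between -0.85 and 0.85.

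The gene with the next smallest p was haf-6, which encodes an ABC transporter that worms need for efficient RNA interference and which lies elsewhere on chromosome I. Its N2 levels were 9.38 and 9.51 in 2007 and 7.68 and 7.77 in 2008. In the mutant they were 8.07 and 6.04 in 2007 and 6.05 and 6.23 in 2008. The strains did not overlap within either year, but the difference of -1.98 (SE 0.36) did not pass the limit (limma adjusted p = 0.144). Without the mutant array 2007-1, the one at 8.07, the difference was -2.33 and passed (adjusted p = 0.0124).

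On UV arrays haf-6 was at 9.27, 9.31, 7.71 and 8.27 in N2 and at 7.18, 6.18, 6.28 and 6.15 in the mutant. That difference of -2.19 (SE 0.36) passed (limma adjusted p = 0.0448) and made haf-6 the last of 3 calls there (0.0133% of probe sets), with xpa-1 and mks-6. Untreated glp-1 animals had 8.55, 8.90, 8.46 and 7.91, each above 3 of the 4 mutant control arrays. When the strain difference was averaged over control and UV arrays, 8 against 8, a contrast added after the data were seen, 4 probe sets passed (0.0177%). These were xpa-1, mks-6, haf-6 at -2.09 (SE 0.25, adjusted p = 6.47e-04) and 180592_s_at at -1.46 (adjusted p = 0.00538).

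Probe set 180592_s_at is annotated to 2 genes, 1 on clone F56A4 and 1 on clone Y19D10A of chromosome V, so its signal cannot be assigned to either. It was bright in N2, at 12.28, 12.56, 11.75 and 12.56, and lower in the mutant, at 11.31, 10.10, 10.13 and 11.18. No mutant array reached the lowest N2 array, and untreated glp-1 animals averaged 12.38. The control difference was -1.61 (SE 0.29, limma adjusted p = 0.144).

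By the gene order, 180592_s_at falls in a run of genes that appears in 2 stretches, 28 or 29 genes apart, on clones named Y19D10A, C01B4, C13B7, F56A4 and Y45G12C. The run was picked after its values were seen, so its counts are a description. Of its 39 probe sets, 32 name 1 gene from each stretch. At an unadjusted p under 0.05, 9 of these 32 were lower in the mutant controls and 0 higher, where 1.94% of all probe sets were lower and 1.8% higher. On the UV arrays 9 were lower and 1 higher, against 1.48% and 1.55% of all probe sets.

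Of the 9 probe sets lower in the controls, 8 lie at places 1 to 10 of the run, which hold 12 of the 32. The other lies at the last place, numbered 29, and is among the 20 after place 10. These 9 include all 6 probe sets with a mean of at least 7 over all arrays, and 3 of the 26 dimmer ones. A change in a dim probe set is understated on this scale. The small differences after place 10 therefore do not show where the lower levels end. Probe set 176845_s_at, at the first place, was at 8.18, 8.27, 8.07 and 7.35 in N2 and at 5.70, 5.53, 6.14 and 6.03 in the mutant, a difference of -2.12 (unadjusted p = 0.00564). Probe set 189744_s_at, at the place numbered 10, was at 8.02, 8.48, 8.60 and 8.79 against 5.38, 5.56, 7.45 and 7.69, a difference of -1.96 (unadjusted p = 2.79e-04). In both, each mutant array was below each N2 array of its year.

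Besides 180592_s_at, the others were 180813_s_at at -1.81, 181239_s_at at -1.68, 176652_s_at at -1.65, 175253_s_at at -1.39, 185673_s_at at -1.36 and, at the last place, 187085_s_at at -0.59. In untreated glp-1 animals the run stood on both sides of N2, with 176845_s_at at 7.19, 5.25, 8.60 and 9.31 and 189744_s_at at 5.00, 5.38, 7.20 and 8.23. For 189744_s_at, 176652_s_at and 185673_s_at the glp-1 controls averaged 6.45, 6.51 and 6.0, and the mutant controls 6.52, 6.37 and 6.58. There the lower level was not particular to the mutant. For 176845_s_at, 181239_s_at, 175253_s_at and 180813_s_at the glp-1 average was nearer to that of N2. The 20 measured genes flanking the run stood between -0.81 and 1.09. Probe set 187084_at, which names the gene at the last place of the second stretch alone, was at -0.0029, and 187156_at, which names the next gene alone, at 0.097. Inside the run, the dim 175532_at names only the gene at place 9 of the first stretch. It was at -0.44 in controls (-1.01 in 2007 and 0.12 in 2008) and at -1.45 on UV arrays (limma unadjusted p = 0.00973). Probe set 188280_at, which names 1 gene at place 22, was at 0.15 in controls and -0.057 on UV arrays.

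**Figure D3:**
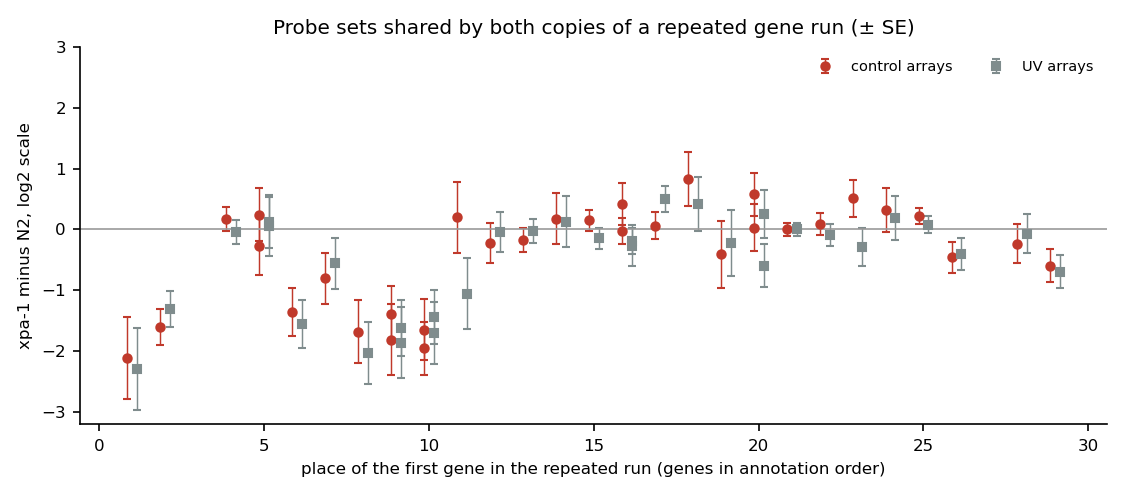
Strain difference, mutant minus N2 with its SE on the log2 scale, of the 32 probe sets shared by both stretches of the repeated gene run, by the place of their gene in the first stretch, for control arrays (circles) and UV arrays (squares). The symbols furthest below 0 on both sets of arrays lie at places 1 to 10, and most symbols after these lie near 0. Dim probe sets, whose change is understated on this scale, are among those near 0.

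Below these, the comparison holds genes whose arrays stood apart by less and which did not pass. The 12 genes with the smallest p in each direction, of the same sign in both years and with a mean of at least 7 in the higher strain, included 12 of 24 on chromosome I, which carries 14.5% of the measured genes. At an unadjusted p under 0.05 the share on chromosome I was 3.63% against 3.71% of all genes, and at an unadjusted p under 0.01 it was 0.929% against 0.549%. On UV arrays the share at that stricter p was 0.525% against 0.532%, and in the 2008 controls alone 1.45% against 1.40%. These positions were looked up after the values were seen, and no test was made of them.

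Among the higher ones, 3 lie within 14 measured genes of each other on chromosome I. The first is tmem-189, whose human counterpart makes the vinyl ether bond of plasmalogens, at 8.14, 8.57, 8.54 and 8.64 in N2 and 8.82, 9.57, 9.65 and 9.87 in the mutant. Its difference was 1.01 (SE 0.22, unadjusted p = 2.40e-04, limma adjusted p = 1.0), and on UV arrays 0.53. The F-box gene fbxa-124 was at 9.16, 8.89, 7.55 and 7.65 against 10.33, 9.75, 8.38 and 8.31, a difference of 0.88 in controls and 0.61 on UV arrays. At the end of this stretch F58D5.2 was at 9.97, 9.41, 9.47 and 9.50 against 10.45, 10.76, 10.19 and 10.70, a difference of 0.94 in controls and 1.13 on UV arrays.

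In these 3 genes every mutant control array was above every N2 control array of its year, as were 2.1% of all genes, and 2.09% were below. Averaged over control and UV arrays F58D5.2 stood at 1.03, with a limma adjusted p of 0.0537. The other 11 measured genes of the stretch stood between -0.090 and 0.72, with 0 at an unadjusted p under 0.05, where 3.71% of all genes were. The highest was Y53C10A.6.

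Of the genes below 0, Y92H12A.2 lies near haf-6 and C30F12.2 near xpa-1. Y92H12A.2, 24 measured genes along from haf-6 with both ends counted, was at 8.67, 8.46, 7.08 and 7.39 in N2 and 6.63, 7.55, 7.01 and 6.92 in the mutant, a difference of -0.87 in controls and -0.48 on UV arrays. The 22 genes between it and haf-6 stood between -0.50 and 0.45, with 0 at an unadjusted p under 0.05. C30F12.2, in a stretch of 37 measured genes that ends at xpa-1, was at 8.39, 8.72, 8.52 and 8.76 in N2 and 7.34, 6.96, 8.18 and 7.97 in the mutant, a difference of -0.99 in controls and -0.70 on UV arrays. The 35 genes between C30F12.2 and xpa-1 stood between -1.42 and 0.38, with 4 at an unadjusted p under 0.05, where 3.71% of all genes were. These were F22D6.8, ekl-1, gly-19 and crml-1, of which gly-19 and crml-1 were already counted among the neighbours of xpa-1. Neither Y92H12A.2 nor C30F12.2 passed (limma adjusted p = 1.0).

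All 12 named genes on chromosome I, xpa-1 and mks-6 among them, kept their sign on the UV arrays and so did 10 of the 12 elsewhere. The share of all genes that kept their sign was not counted, so these counts are only a description of genes chosen by their p. Over all genes the control and UV differences correlated at 0.18 (Pearson). On chromosome I and elsewhere, several of the named genes were far from 0 in 2007 and nearer to 0 in 2008 and on UV arrays. On chromosome I the RIO kinase gene riok-1 was at -2.40 in 2007, -0.83 in 2008 and -0.075 on UV arrays, and C54G4.4 at 1.99, 0.19 and 0.18. Elsewhere, the THO complex gene thoc-1, which acts in mRNA export, was at -3.07 in 2007, -0.26 in 2008 and -0.17 on UV arrays. The Hox gene mab-5 was at -2.39, -0.40 and -0.81, the hedgehog-related wrt-5 at -2.50, -0.32 and -0.18, and the SET domain gene set-5 at -1.71, -0.40 and -0.019. The receptor phosphatase gene ptp-3, which guides axons, was at -0.95, -0.42 and -0.21. Of the higher genes, trpp-5, a subunit of the TRAPP vesicle tether, and R03H10.1 were at -0.39 and -0.33 on UV arrays, opposite to their controls (0.56 and 1.39).

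The arrays of 2008 alone, which agreed better between replicates, called 2 probe sets (0.00887%), again xpa-1 and mks-6. The difference of xpa-1 was -4.46 (SE 0.13) and that of mks-6 2.86 (SE 0.18). Leaving out 1 array of that year moved this count to between 1 and 51, the highest without the mutant array 2008-1. After them ttn-1, the giant titin-like protein of the muscle sarcomere, was at 10.69 and 10.10 in N2 and 9.11 and 8.76 in the mutant in 2008, a difference of -1.46. In 2007 it was at 9.84 and 8.95 against 8.76 and 9.39, where the strains overlap. Of the other genes named from 2008, timm-17B.2, a part of the mitochondrial import channel, was at 0.93 in 2008 and 1.37 in 2007 but 0.017 on UV arrays. The Rab GTPase-activating gene tbc-2 was at -0.55 in each year and -0.034 on UV arrays, the adaptor subunit aps-2 at 0.37 and 0.30, and the WASH complex gene wshc-5 at -0.66 in 2008 and -0.052 in 2007.

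The 2007 arrays alone also called 2 probe sets (0.00887%), and these were different ones. C39D10.7 was at 8.19 and 7.52 in N2 and 12.13 and 11.85 in the mutant in 2007, and at 11.63 and 11.73 against 11.86 and 11.78 in 2008. A probe set of F33E11.2 was at 8.35 and 8.59 against 5.69 and 5.36 in 2007, and at 8.79 and 8.96 against 8.87 and 9.11 in 2008. Leaving out any 1 array of 2007 left 0 calls in that year. The test of the strain difference in 2008 minus that in 2007 called 12 probe sets (0.0532%), and in all 12 the difference of 2008 was smaller in size than that of 2007. That count was 351 without the mutant array 2007-2 and 2 without the mutant array 2008-2 or the N2 array 2008-1.

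Over all 17118 genes the strain difference of 1 year said little about that of the other. The correlation across genes between the 2007 and 2008 differences was -0.0078 (Pearson) and -0.024 (Spearman), given as a description, since genes share the 4 arrays of a year. The differences had an SD of 0.63 in 2007 and 0.24 in 2008. In 2007, 1965 genes differed by more than 1 on the log2 scale, 11.5% of all, and in 2008, 37 did, 0.216%.

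In both years and the same direction 7 genes passed that size. Besides xpa-1, mks-6 and haf-6 they were yars-2, a mitochondrial tyrosyl-tRNA synthetase, at -1.33, the globin glb-18 at -1.26, the cytochrome P450 cyp-13A5 at -1.33 and B0353.1 at 1.29, none of them called. For yars-2 the N2 arrays were at 7.68, 7.99, 6.48 and 7.41 and the mutant arrays at 6.92, 5.78, 5.43 and 6.09, apart in both years, and it was at -0.94 on UV arrays.

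**Figure D4:**
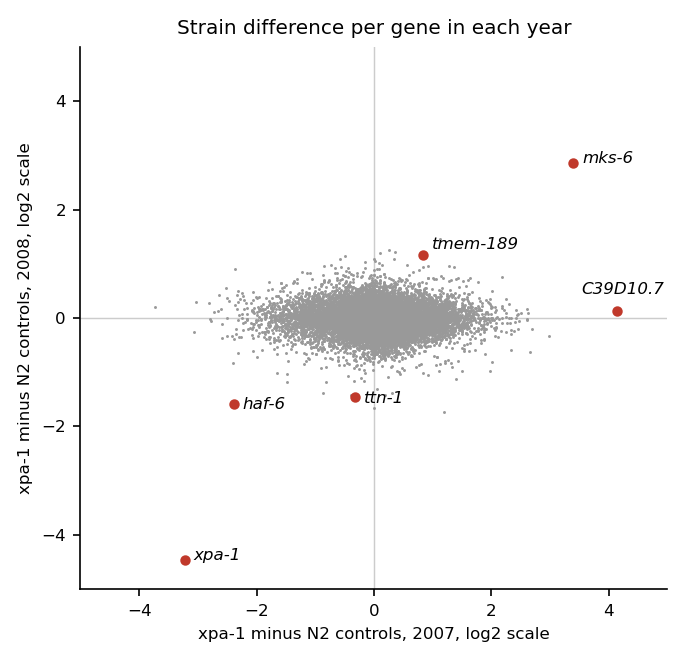
Strain difference per gene on the log2 scale, mutant minus N2 controls, in 2007 (horizontal axis) and in 2008 (vertical axis), with 17118 genes as grey points and named genes in red. The points spread far along the 2007 axis and little along the 2008 axis, and xpa-1, mks-6 and haf-6 lie away from the origin on both.

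The other nucleotide excision repair genes did not pass in the mutant controls. Of 27 listed genes 26 were measured, and xpa-1 was the 1 called, where 0.0117% of all genes were called. At an unadjusted p under 0.05 there were 0 higher and 1 lower, against 1.91% and 1.8% of genes, and the list median was 0.030 against 0.0034 for all genes. The lesion sensor xpc-1 was at 0.13 with a wide SE of 0.70, its partner rad-23 at 0.026, and ddb-1 at -0.14. The transcription-coupled factors csb-1 and csa-1 were at 0.13 and 0.35. For csb-1, N2 had 10.23, 10.34, 9.29 and 9.35 and the mutant 10.83, 10.36, 9.05 and 9.49, which overlap in 2008.

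The TFIIH genes lay between -0.17 for the helicase xpb-1 and 0.45 for gtf-2H5. The nuclease genes xpf-1, ercc-1 and xpg-1 were at -0.39, 0.13 and -0.21. Replication protein A, the direct partner of XPA, had rpa-1 at 0.33 (unadjusted p = 0.227) and rpa-2 at -0.017. The rpa-1 arrays were 9.35, 9.76, 10.48 and 10.78 in N2 and 9.85, 9.84, 10.97 and 11.03 in the mutant, apart in both years. The clamp pcn-1, its loaders rfc-1 to rfc-4 and the ligase lig-1 lay between -0.031 and 0.096. For 21 of the 26 genes the 95% interval lay within a change of 1 on the log2 scale in either direction.

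Other lists of DNA damage genes had few members past an unadjusted p of 0.05. Of 40 measured genes of other repair pathways, 0 were higher and 1 lower at an unadjusted p under 0.05, against 1.91% and 1.8% of all genes. The list median was 0.031. The lower one was dog-1, a helicase that protects runs of guanine, at -0.73, with -1.37 in 2007 and -0.091 in 2008. The recombinase rad-51 was at 0.40, with 10.22, 10.59, 10.72 and 10.54 in N2 and 10.90, 10.75, 10.93 and 11.10 in the mutant, apart in both years. Of the 40 genes 4 were apart in both years with the mutant higher and 0 with it lower, against 2.1% and 2.09% of all genes. Among 33 checkpoint and cell death genes 0 were higher and 1 lower (median -0.021), the phosphatase cdc-25.1 at -0.71.

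The p53 gene cep-1 was at 8.97, 9.41, 9.91 and 10.16 in N2 and 9.43, 9.58, 9.64 and 9.72 in the mutant, a difference of -0.021. Its target egl-1, a trigger of cell death, spread from 5.00 to 8.23 in N2 and from 6.94 to 8.58 in the mutant (0.88, unadjusted p = 0.121). The other target, ced-13, stood at 0.055.

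Since mks-6 is a cilium gene, the genes of that structure were counted with it. Of 51 measured cilium and transition zone genes, mks-6 was the 1 called, where 0.0117% of all genes were. At an unadjusted p under 0.05, 1 was higher and 3 lower, against 1.91% and 1.8% of all genes. The list median was 0.029 in controls and -0.065 on UV arrays. The kinesin subunit kap-1 was at -0.97 and dyf-3, needed for intraflagellar transport, at -0.84. In 2007 alone they were at -1.93 and -1.68, and in 2008 alone at -0.021 and 0.0086. Apart from mks-6 no cilium gene was higher at an unadjusted p under 0.05.

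Lists of tissue genes described the make-up of the whole animals, in which fewer cells of a type and less RNA per cell cannot be told apart. Of 40 measured genes of body wall and pharyngeal muscle, 10 were above and 30 below 0, with a median of -0.18. At an unadjusted p under 0.05, 0 muscle genes were higher and 1 lower, ttn-1 at -0.89, against 1.91% and 1.8% of all genes. In 2008 alone 4 were lower, where 3% of genes were. Of the contractile genes named, mlc-1, a light chain of myosin, stood at -0.55 and the actin act-4 at -0.27. The list's mean per array was 9.67 to 10.06 in N2 and 9.49 to 9.92 in the mutant in 2008, and 9.19 to 9.77 against 8.81 to 9.68 in 2007, so the strains overlapped in both years. Over the alternatives the median of body wall and pharyngeal muscle genes ran from -0.42 to 0.024.

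No gene of the germ line lists passed the limit either. Of 37 oocyte and eggshell genes 0 were higher and 0 lower at an unadjusted p under 0.05 (median -0.11), against 1.91% and 1.8% of all genes. In that list 9 genes were above and 28 below 0. Of 39 meiotic chromosome and germ granule genes 1 was higher and 2 lower (median -0.099), with 12 above and 27 below 0. Past that p were the synaptonemal complex gene syp-1 at 0.44, the mismatch repair family gene him-14 at -1.11 and the Argonaute wago-1 at -0.60. Of 50 sperm genes 0 were higher and 0 lower (median 0.14), 36 standing above 0. The sperm list differed between years in both strains, its mean per array being 6.93 to 8.36 in N2 and 7.38 to 8.32 in the mutant in 2007, and 5.70 to 6.0 against 5.87 to 5.89 in 2008.

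Of 31 early embryonic zygotic genes 3 were higher and 0 lower at an unadjusted p under 0.05 (median 0.10), against 1.91% and 1.8% of all genes. The 3 were sdz-10 at 0.67, sdz-38 at 0.61 and the pharynx selector pha-4 at 0.89. On UV arrays sdz-38 was at 0.58 and pha-4 at -0.023.

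Intestine and yolk genes had 0 higher and 2 lower of 38 at that p (median -0.068), where 1.91% and 1.8% of all genes were. The 2 were the cysteine protease cpr-3 at -0.75 and let-413, which sets cell polarity, at -0.32. In that list 11 genes were above and 27 below 0. Cuticle collagens had 0 and 2 of 147 (median -0.085), col-118 and col-131, with a median of -0.21 in 2007 and 0.056 in 2008. Of the collagens 50 were above and 88 below 0. Neuronal genes had 0 and 0 of 47 (median 0.013), and neuropeptide genes 1 and 1 of 83 (median -0.0032), nlp-22 at 0.37 and flp-24 at -1.02.

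**Figure D5:**
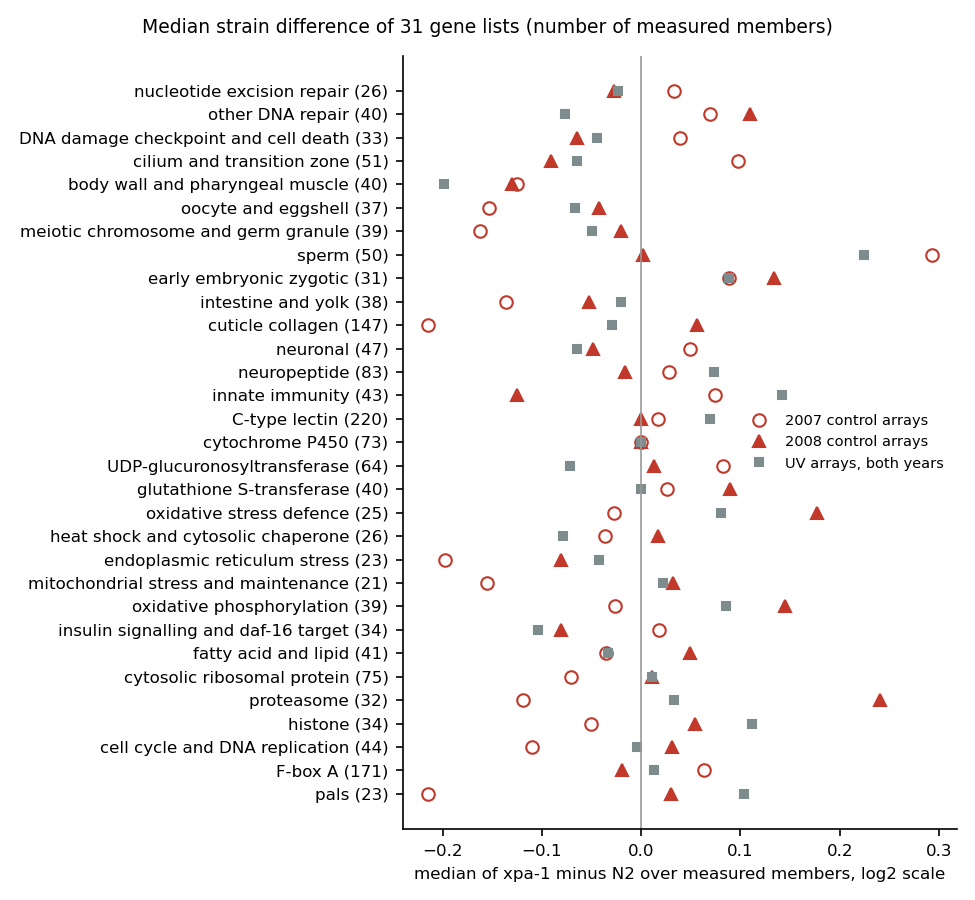
Median strain difference on the log2 scale over the measured members of 31 gene lists, with the number of measured members in brackets, in the 2007 control arrays (open circles), the 2008 control arrays (triangles) and the UV arrays of both years (squares). All medians lie between -0.25 and 0.30, and for many lists the 2007 and 2008 symbols lie on opposite sides of 0.

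Proteasome genes differed in sign between years. In 2008, 9 of 32 were higher at an unadjusted p under 0.05 and 0 lower, where 2.6% and 3% of genes were, with a median of 0.24. In that year the list's mean per array was 10.77 to 10.81 in N2 and 11.03 to 11.10 in the mutant, and the core subunit pbs-1 was at 10.27 and 10.25 against 11.02 and 11.07. In 2007 the list's means were 10.64 to 10.86 in N2 and 10.57 to 10.63 in the mutant, the median was -0.12, and pbs-1 was at -0.053. Over both years 0 were higher and 0 lower at that p (median 0.084), against 1.91% and 1.8% of all genes. Of the list 24 were above and 8 below 0, and the median on UV arrays was 0.033.

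The remaining stress and defence lists had few members past an unadjusted p of 0.05. At that p 1.91% of all genes were higher and 1.8% lower. Oxidative stress defence had 1 higher and 0 lower of 25 (median 0.10), the mitochondrial thioredoxin trx-2 at 0.49, and heat shock and cytosolic chaperone genes 1 and 0 of 26 (median 0.013), the small heat shock gene hsp-25 at 0.35. Endoplasmic reticulum stress genes had 0 and 2 of 23 (median -0.12), sel-1 at -0.40 and pdi-1 at -0.32, with 4 genes above and 19 below 0. Mitochondrial stress and maintenance genes had 0 and 0 of 21 (median -0.025), and oxidative phosphorylation genes 0 and 0 of 39 (median 0.046).

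Innate immunity genes had 0 and 0 of 43 (median -0.092) and C-type lectins 6 and 4 of 220 (median 0.020). The shares of all genes were again 1.91% higher and 1.8% lower. Cytochrome P450 genes had 2 and 0 of 73 (median 0.045), UDP-glucuronosyltransferases 1 and 2 of 64 (median 0.065) and glutathione S-transferases 1 and 0 of 40 (median 0.061). The insulin signalling and daf-16 target list had 0 and 1 of 34 (median -0.044), the nicotinamidase pnc-1 at -0.87, and the fatty acid and lipid list 0 and 0 of 41 (median -0.016).

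Among housekeeping families, cytosolic ribosomal protein genes had 0 and 0 of 75 (median -0.039), with 25 above and 50 below 0. The 95% interval of 74 of the 75 lay within a change of 1. Histone genes had 0 and 0 of 34 (median 0.022), and cell cycle and DNA replication genes 0 and 0 of 44 (median -0.042). F-box A genes had 3 and 3 of 171 (median 0.028) and the pals family, which responds to intracellular infection, 0 and 1 of 23 (median -0.14). These counts stand against 1.91% of all genes higher and 1.8% lower.

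The reach of the comparison can be read from its errors. The median SE over probe sets was 0.33, and the 95% interval lay within a change of 1 on the log2 scale for 5346 of the 7747 genes with a mean level of at least 7 (69%). Before adjustment, 842 probe sets (3.73%) had a p under 0.05, of which 405 were higher and 437 lower in the mutant. Data of this design were simulated over 22548 probe sets, with 50 changes of each size placed only in probe sets with a mean level of at least 7. There 26% of changes of 1 were called, 66% of changes of 1.5, 76% of changes of 2 and 100% of changes of 3. The simulated spread of a probe set was the same in both years, while the real median SE was 0.51 in 2007 and 0.19 in 2008. These shares therefore do not cover dimmer probe sets and may not hold for the real arrays.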

How the data were processed

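The deposited intensities come from the authors' single table of 22548 probe sets on Affymetrix arrays, on a linear scale with 18.6% of values below 0. How they were summarised, background-corrected and scaled is not given here. The labels gave strain, treatment, year and replicate. Values were quantile normalized over all 24 arrays, negative values were then raised to 0 and put on the scale log2(value + 32). limma (3.58.1, R 4.3.3) fitted a mean per strain and treatment plus year over all 24 arrays (17 residual and 2.24 prior degrees of freedom). Two-sided moderated p-values were adjusted over the whole table (Benjamini-Hochberg). UV arrays used the same fit, and years were also fitted alone.

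Of the probe sets 20766 named 1 gene, 887 several and 895 none. For each gene the brightest probe set naming it alone was used, giving 17118 genes. Gene order came from the RefSeq table for WBcel235, and no coordinates are printed because the build behind the array is not given. Named were all called genes, the 12 smallest p-values per direction and 10 per direction in 2008 with equal sign in both years and a mean of at least 7, the 10 measured genes on either side of xpa-1, the 3 members with the smallest p of each of 31 lists, and a fixed set of damage genes. Genes outside this rule were chosen after their values were seen. The members and lists were chosen with earlier results of these data known. The fit was tested on simulated data, in which 5 of 22348 unchanged probe sets were called. Alternatives covered normalization, the added constant, dim probe sets, variances, weights, year, a replicate block, probe set averaging and each array left out.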

Additional observations from a re-analysis of the deposited data

Results flagged for a closer look

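Of 66 groups of 4 control arrays examined over the named genes and repeated-run probe sets, 5 held an array far from the other 3. For 4 arrays that are alike chance gives about 1 in 20. Each group held 2 arrays of each year, amplified differently, and the genes were chosen by their p, so that rate need not hold here. The mutant array 2007-1 was the distant one for xpa-1 (6.59), haf-6 (8.07) and 185673_s_at (7.61), each time above the other mutant arrays and toward N2. The N2 array 2007-1 was high for F58D5.2 (9.97) and the N2 array 2007-2 low for Y17D7B.4 (7.37).

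For 12 probe sets the strain difference itself differed between years in the limma test, with values given as the 2008 difference minus that of 2007. These were F33E11.2 at 3.06 (adjusted p = 1.67e-04), C39D10.7 at -4.0 (adjusted p = 1.85e-04), R08C7.11 at -2.33, C30G12.1 at 2.61, F41G4.7 at 2.15, ceh-49 at -2.28, R03H10.1 at -2.44, Y55F3BR.1 at 2.05, K07G6.1 at -1.90, K09E3.7 at 2.72, eel-1 at 1.61 and T22F7.1 at 1.89. For R08C7.11 and K07G6.1 all 4 arrays of 2008 were at 5.00, the lowest possible level. In C39D10.7 the difference of 2007 came from N2 (8.19 and 7.52), which in 2008 was at 11.63 and 11.73, while the mutant was between 11.78 and 12.13 in both years. Year and amplification kit cannot be told apart.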

How the results depend on the processing

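The control comparison called 2 probe sets. It called 1 on values as deposited, 0 with median centring, 0 with quantile normalization within each year, 1 with the 8 control arrays normalized and fitted alone or only fitted alone, 1 on log2(value + 1), 51 with array weights, 5 with 1 weight per year, 21 with a year term per group and 4 when averaged with the UV arrays, and 2 to 3 when 1 array was left out. The 2008 arrays alone (2) gave 1 as deposited, 5 with quantile normalization within each year, 0 with the 8 control arrays alone, 10 on log2(value + 1) and 1 to 51 when 1 array was left out. The 2007 arrays alone (2) gave 1 as deposited, with median centring, with quantile normalization within each year, with 75th percentile scaling, with trend and robust variances and with the mean over probe sets, 0 with the 8 control arrays alone, 5 on log2(value + 1) and 0 whichever array was left out. The difference between years (12) gave 4 as deposited, with quantile normalization within each year, with the dimmest 40% left out and with array weights, 3 with median centring and with trend and robust variances, 0 with the 8 control arrays alone, and 2 to 351 when 1 array was left out. The UV arrays (3) gave 1 as deposited, 0 with quantile normalization within each year, 120 with array weights, and 2 when 1 array was left out. The cause was not tested.

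With a replicate block the control comparison called 3, adding 180592_s_at (adjusted p = 0.0173), the 2008 arrays 4, the 2007 arrays 0, the difference between years 10 and the UV arrays 2. Equal numbers share only a number: the deviations of same-numbered arrays correlated at -0.078 in 2007 and 0.21 in 2008.

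As deposited, xpa-1 had an adjusted p of 0.69 and mks-6 of 1.0, with median centring 0.32 and 0.16, and with quantile normalization within each year 1.0 and 0.099. With the 8 control arrays normalized and fitted alone or only fitted alone xpa-1 had 0.39 and 0.33, and on log2(value + 1) 0.94. The call of haf-6 appeared as deposited (adjusted p = 0.0085), with 75th percentile scaling (0.0288), with array weights (2.24e-04) and with 1 weight per year (0.00366). Among single genes 872 values kept sign and side of the limit, 21 newly passed, 9 no longer passed and 13 small values moved, and 0 reversed. Values as deposited moved the median of all probe sets to -0.13. Dim probe sets have only a bound, since 15.5% of normalized values were at or below 0.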
